A study of Mus musculus with 6 samples.

Results

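The 10 genes described here are the 4 Fos family genes (Fos, Fosb, Fosl1, Fosl2), the 3 Jun family genes (Jun, Junb, Jund) and 3 further immediate early genes (Atf3, Egr1, Ier2). They were taken by gene symbol from a table of 13595 genes, in which all 10 were listed. After genes that reached a value of 1 in fewer than 3 libraries were set aside, 12568 genes were tested, and all 10 were among them.

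RNA was sequenced from CD31-positive cells, an endothelial preparation, taken from the liver of C57BL6/J mice aged 4 weeks and kept in primary culture. All 6 libraries came from cells that had received the same treatment, 100 µM indoxyl sulfate (a uremic metabolite that activates the aryl hydrocarbon receptor, AHR) together with hypoxia and nutrient deprivation for 6 hours. Of these libraries, 3 were labelled male and 3 were labelled female, each with replicate numbers 4, 5 and 6, so that the one comparison available was female against male under treatment. Vehicle-treated cells were not analysed here, and the values below therefore say nothing of how far the treatment itself moved any gene. The labels do not say whether a replicate is a mouse, an isolation or a culture well, and the p-values measure the spread between these libraries, which may be technical.

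AP-1 is a transcription factor made of pairs of basic leucine zipper (bZIP) proteins. Jun proteins pair with each other or with a Fos protein, Fos proteins need a Jun partner to bind DNA, and pairs that hold different members differ in how strongly they activate their targets. Fos, Jun, Junb, Fosb, Atf3, Egr1 and Ier2 are immediate early genes, which cells switch on within minutes of growth factors, stress or injury without new protein synthesis and whose transcripts are short-lived. Fosl1 and Fosl2 usually follow later and last longer, and Jund is commonly present at a steady level in resting cells.

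Values are deposited normalized read counts, which are reads divided by 1 factor per library, and are listed in the order of replicates 4, 5 and 6. The libraries held 22303270 to 31189363 recovered reads, and 3 reads were worth 0.106 to 0.142. Xist, the RNA of the inactive X chromosome, was 324, 234 and 301 in the libraries labelled female and 0.124, 0.458 and 0.388 in those labelled male. Ddx3y, a Y-linked gene, was 50.2, 48.5 and 57.7 in the libraries labelled female and 47.2, 76.3 and 47.4 in those labelled male. Of the other Y-linked genes looked up, the group means (male, then female) were 26.9 and 24.1 for Uty, which was not called, and 58.1 and 29.8 for Eif2s3y and 34.9 and 19.1 for Kdm5d, which were called lower. The libraries labelled female thus held reads assigned to Y-linked genes, so the groups are named by their labels; whether reads of X homologues were assigned to these genes was not tested. Male 4 stood apart from the other male libraries, with a chi-square per gene of the recovered reads of 43.6 and 45.4 against male 5 and male 6, compared with 5.98 between male 5 and male 6 and 4.35 to 9.59 between female libraries. The members' log2 differences, the ratios, the family sums and the counts of the 5 pathway lists are given with and without male 4.

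Most AP-1 genes were lower in the libraries labelled female. Jun, Junb, Jund, Fos, Fosl1, Fosl2 and Atf3 were called lower, which is 7 of the 10 members, whereas 34.6% of all tested genes were called lower. Egr1 and Ier2 were called higher, which is 2 of the 10, and 34.6% of all tested genes were called higher. Fosb was not called. A call is an adjusted p under 0.05 in limma (Benjamini-Hochberg over all tested genes), with fold changes given as log2(value + 1) differences of female minus male. The median difference over all tested genes was 0.01. For 9 members the groups did not overlap, 7 with every library labelled female below every male one and 2 with every library labelled female above, shares that compare with 37.0% and 37.1% of all tested genes. In bulk RNA, fewer cells of a type and less RNA per cell cannot be told apart.

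**Figure D1:**
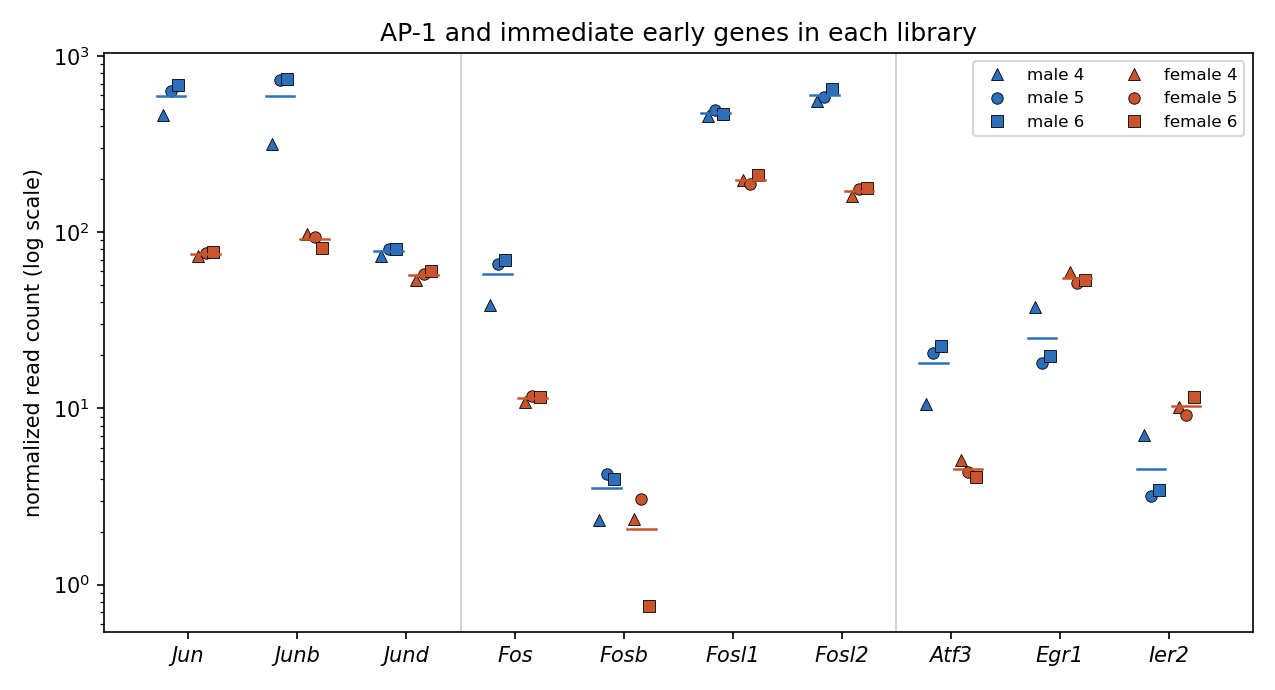
Normalized read count (log axis) of each member in each of the 6 libraries, with triangles, circles and squares for replicates 4, 5 and 6 and short lines for the group means. Male values lie above female values for Jun, Junb, Jund, Fos, Fosl1, Fosl2 and Atf3, below them for Egr1 and Ier2, and overlap with them for Fosb, and the male 4 triangle is the male point nearest to the female mean for each member.

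The stretches of DNA just upstream of 4 of the genes called lower are shown because Jun and Atf3 are themselves known targets of bZIP factors and Fos of factors that bind cAMP response elements. RefSeq windows (build GRCm38.p6) were matched for 7 of the 10 members, and 5 of them (Jun, Junb, Fos, Fosb, Atf3) began within 30 bases of a GENCODE M21 transcript start and were searched. Each run below is the 150 bases before the RefSeq start, written 5′ to 3′ on the gene's own strand, which is chr4:95052223-95052372 (minus strand) for Jun, chr8:84978749-84978898 (minus) for Junb, chr12:85473740-85473889 (plus) for Fos and chr1:191183334-191183483 (minus) for Atf3. The Junb window ends 30 bases before the nearest GENCODE start, and the RefSeq start of Atf3 lies 7 bases after it. Capitals mark TGACATCA, a variant AP-1 and ATF site, in Jun, and TGACG, the core of a cAMP response element, in the others, where it reads CGTCA if it lies on the opposite strand.
Jun: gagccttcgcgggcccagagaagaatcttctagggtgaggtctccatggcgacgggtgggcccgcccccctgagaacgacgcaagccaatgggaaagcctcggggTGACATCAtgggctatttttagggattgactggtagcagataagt
Junb: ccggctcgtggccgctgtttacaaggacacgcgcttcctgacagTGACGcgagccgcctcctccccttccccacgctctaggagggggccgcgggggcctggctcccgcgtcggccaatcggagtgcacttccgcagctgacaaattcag
Fos: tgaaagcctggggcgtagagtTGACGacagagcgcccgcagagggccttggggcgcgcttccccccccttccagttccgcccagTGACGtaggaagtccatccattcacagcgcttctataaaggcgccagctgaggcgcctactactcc
Atf3: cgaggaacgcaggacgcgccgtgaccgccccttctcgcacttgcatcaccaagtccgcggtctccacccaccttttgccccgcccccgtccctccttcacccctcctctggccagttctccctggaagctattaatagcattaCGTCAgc

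Searched on both strands over 250 bases, TGACG was present in 4 of the 5 windows and in 17.9% of 32536 RefSeq windows of the same length. It began 129 and 66 bases before the start of Fos, 106 before Junb, 60 before Fosb and 7 before the RefSeq start of Atf3, which places it at the GENCODE start and not upstream of it. TGACATCA lay 45 bases before the start of Jun and was found in 2.84% of all windows. The classical AP-1 site TGACTCA (4.45% of windows), the full cAMP response element TGACGTCA (1.56%, which contains TGACG), the hypoxia response core ACGTG (16.7%) and the CArG box (1.48%), which binds serum response factor, were in none of the 5 windows. GCGTG, the core of the AHR site, was in the windows of Atf3, Junb and Fos, compared with 28.3% of all windows, and TATAAA lay 33 bases before the start of Fos (12.3% of windows). These matches are descriptions of letters in short windows, and no binding was measured. Positions further upstream were not searched, so absence from a window does not show that a gene lacks the site. Fosl1, Egr1 and Ier2 had no matched window.

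Among the Jun family, Jun showed the largest difference. Jun, the founding AP-1 subunit and the target of JNK kinases, lies on chromosome 4 and was 463, 636 and 683 in the libraries labelled male and 73.6, 76.3 and 77.2 in those labelled female. The group means were 594 ± 116 and 75.7 ± 1.87 (SD, n = 3 each), a level 7.85-fold lower in the libraries labelled female, with a log2 difference of -2.94 (SE 0.13, limma adjusted p = 4.14e-07). The female libraries were nearly alike, and the spread was in the male group, where male 4 was lowest. By log2 difference Jun ranked 168 from the lowest of the 12568 tested genes, compared with 262 for Junb and 391 for Fos. The other Jun genes lie on chromosome 8, as does Ier2, while Fos lies on chromosome 12, Fosb on 7, Fosl1 on 19, Fosl2 on 5 and Atf3 on 1.

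Junb, a Jun protein that often restrains Jun in resting cells, was 319, 736 and 740 in the male libraries and 97.8, 94.7 and 81.3 in the female ones. Its means were 598 ± 242 and 91.3 ± 8.79, which is 6.56-fold lower, and the log2 difference was -2.60 (SE 0.29, adjusted p = 7.37e-05). Male 4 held 43.3% of the mean of male 5 and male 6, so most of the male spread of Junb lay in that library, yet it was still far above every library labelled female. Male 5 and male 6 alone were 8.08-fold above the female mean, and without male 4 the log2 difference was -3.01.

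Jund, the Jun gene least tied to acute stimulation, differed least among the genes called lower. Its values were 73.5, 80.4 and 80.1 in the male libraries and 53.4, 57.9 and 60.6 in the female ones, and the mean of the female group was 73.4% of the male mean. The log2 difference was -0.44 (SE 0.07, adjusted p = 0.000701), and the groups did not overlap. In the authors' deposited table the same gene had a fold change of -1.363 and a false discovery rate of 0.266, so the call for Jund was not made there. Of the other members, the authors' deposited table places 8 under a false discovery rate of 0.05 and leaves out Fosb at 0.365, as here.

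The Fos family divided by level and by size of difference. Fos, the prototype immediate early gene, was 38.8, 65.8 and 70.0 in the male libraries and 10.9, 11.8 and 11.6 in the female ones. Means of 58.2 ± 17.0 and 11.4 ± 0.456 gave a level 5.09-fold lower, with a log2 difference of -2.21 (SE 0.20, adjusted p = 2.08e-05). Both groups were far apart, and Fos in male 4 was 57.1% of the mean of male 5 and male 6. Fos is the gene shown above with a pair of TGACG letters close to its start.

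Fosl2, which encodes FRA2, was 560, 591 and 655 in the male libraries and 161, 175 and 179 in the female ones, a 3.51-fold lower level (log2 difference -1.80, SE 0.08, adjusted p = 3.15e-07). Fosl1, which encodes FRA1, was 459, 494 and 470 against 199, 187 and 213, a 2.38-fold lower level (log2 difference -1.25, SE 0.07, adjusted p = 1.04e-06). Both genes varied little among the male libraries, with male 4 at 89.9% of the mean of male 5 and male 6 for Fosl2 and at 95.2% for Fosl1.

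Fosb, a Fos protein with a strong activation domain, had the lowest level per kilobase of the members in both groups, and its normalized read counts were 2.32, 4.27 and 3.96 in the male libraries and 2.37, 3.05 and 0.760 in the female ones. These values rest on 56, 112 and 112 reads in the male libraries and 57, 69 and 16 in the female ones. The log2 difference was -0.62 (SE 0.31, adjusted p = 0.106), the groups overlapped, and no call was made. That outcome turned on single libraries, since Fosb was called at -0.83 without male 4 (adjusted p = 0.0283) and at -0.86 without female 5 (adjusted p = 0.0477), and had a difference of -0.26 without female 6 (adjusted p = 0.342).

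Atf3, a stress-induced bZIP protein that pairs with Jun proteins and often represses its targets, was 10.6, 20.8 and 22.7 in the male libraries and 5.11, 4.38 and 4.08 in the female ones. Its log2 difference was -1.72 (SE 0.25, adjusted p = 0.000345), from means of 18.0 ± 6.51 and 4.52 ± 0.526. The male libraries were all above the female ones, but male 4 had 48.7% of the mean of male 5 and male 6.

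Egr1 and Ier2 went the other way. Egr1, a zinc finger factor induced by growth factors and shear stress, was 37.5, 18.2 and 19.7 in the male libraries and 59.9, 51.3 and 53.95 in the female ones. The means were 25.1 ± 10.7 and 55.1 ± 4.41, a level 2.19-fold higher in the libraries labelled female (log2 difference 1.17, SE 0.23, adjusted p = 0.00215). Within the male group Egr1 was highest in male 4, and without that library the log2 difference was 1.49.

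Ier2, an immediate early nuclear protein, was 7.05, 3.17 and 3.43 in the male libraries and 10.2, 9.24 and 11.7 in the female ones. The level was 2.28-fold higher in the libraries labelled female (log2 difference 1.10, SE 0.24, adjusted p = 0.00333). As with Egr1, male 4 lay between the other male libraries and the female ones, at 214.0% of the mean of male 5 and male 6, and without it the log2 difference was 1.40. The authors' deposited table gives fold changes of 2.192 for Egr1 and 2.284 for Ier2, with false discovery rates of 0.0474 and 0.0159.

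**Figure D2:**
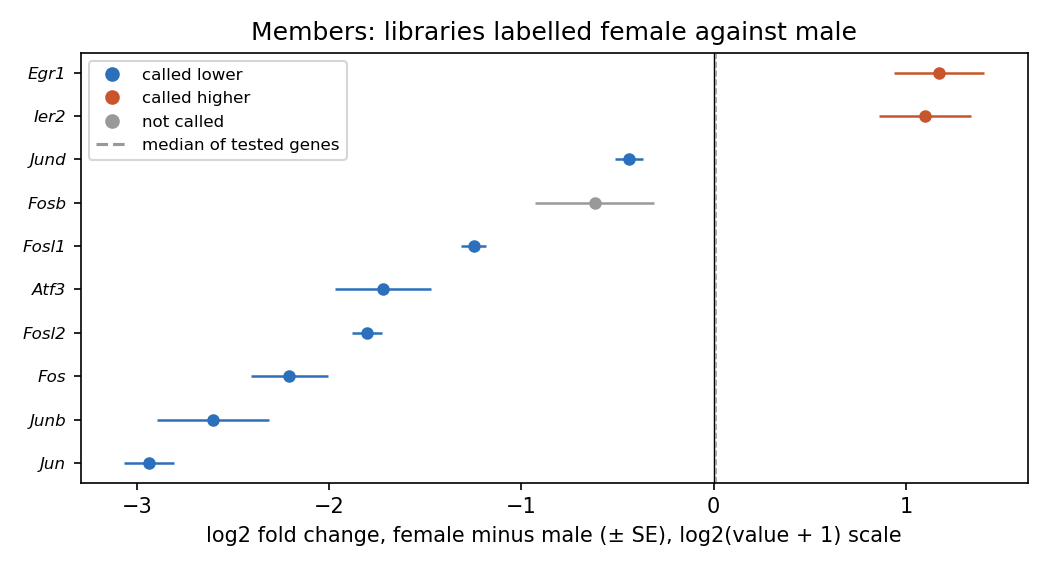
Log2 difference of each member, female minus male, on the log2(value + 1) scale, with bars for the standard error and a dashed line at the median of all tested genes (0.01). The points run from -2.94 for Jun to 1.17 for Egr1, with Fosb in grey as not called.

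Male 4 held an intermediate place for the whole set. For all 10 members it was the male library nearest to the female mean, whereas male 4 was nearest for 42.9% of the 12568 tested genes and for 46% of the 8704 called genes. This way of placing the libraries was chosen after the values had been seen. Expressed as a share of the log2 distance from male 5 and male 6 to the female mean, male 4 lay at 64.8% for Ier2, 63.8% for Egr1, 47.6% for Atf3, 40.1% for Junb and 32.1% for Fos. The shares were 25.9% for Jund, 16.4% for Jun, 8.19% for Fosl2 and 5.48% for Fosl1, so that Fosl1 and Fosl2 in male 4 were close to the other male libraries. Fosb, which rests on few reads, was at 75.3%. In the same library a pair of contractile mesenchymal markers lay towards the female values, with Acta2 at 134 in male 4 and at 56.4 and 45.9 in male 5 and male 6, against 1890, 1680 and 1510 in the female libraries. Tagln was 83.6, 40.2 and 32.5 in the male libraries and 1180, 1090 and 900 in the female ones, and other markers of the same list were mixed. Hgf was 33.0 in male 4 and 46.3 and 41.3 in male 5 and male 6, also towards the female values. Myh11 was 1.74, 1.79 and 1.41 in the male libraries against a female mean of 124, and Col3a1 was 1550 in male 4 and 1110 and 1130 in male 5 and male 6 against a female mean of 226. The part of such cells in the members' values was not tested.

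Without male 4, 8 members were called lower and 2 higher, beside 35.9% and 38.9% of the 12187 genes tested in that fit. Jun was then at -3.11, Fos at -2.47, Atf3 at -2.04, Fosl2 at -1.85, Fosl1 at -1.27 and Jund at -0.48 on the log2 scale. Each of these members was further from 0 than with all 6 libraries, and none changed direction.

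Levels can be compared between members only per kilobase of exon (GENCODE M21 lengths). In the male libraries Junb (260.0), Fosl1 (234) and Jun (186) led in mean normalized read count per kilobase, followed by Fosl2 (62.2), Jund (46.8), Fos (24.7), Atf3 (8.36), Egr1 (5.60), Ier2 (2.99) and Fosb (0.563). The ranges of the neighbours Junb and Fosl1, Atf3 and Egr1, and Egr1 and Ier2 overlapped across male libraries, and the other neighbours were apart. In the female libraries the order per kilobase was Fosl1 (98.1), Junb (39.7), Jund (34.3), Jun (23.7), Fosl2 (17.7), Egr1 (12.3), Ier2 (6.82), Fos (4.86), Atf3 (2.10) and Fosb (0.330). There, the ranges overlapped for Junb and Jund and for no other neighbours. Fosl1 thus stood first among members in the female libraries with a range apart from that of Junb, and Egr1 and Ier2 stood above Fos, the reverse of their male order. Set against the tested genes with a known length, Fosl1, Junb and Jun lay at the 97.9, 97.6 and 96.4 percentiles of level per kilobase over all libraries, and Fosb lay at the 6.25 percentile.

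The summed Fos family level per kilobase was 301, 333 and 329 in the male libraries and 119, 116 and 128 in the female ones, 2.65-fold lower. The summed Jun family level was 328, 567 and 584 against 97.6, 99.8 and 95.8, 5.05-fold lower. Both sums were apart between the groups, and without male 4 the male sums were 2.74-fold (Fos family) and 5.89-fold (Jun family) above the female ones. Fosl1 made up 72.8 ± 2.47% of the Fos family sum in the male libraries and 81.0 ± 1.27% in the female ones, while Fosl2 went from 19.4 ± 1.11% to 14.7 ± 0.914% and Fos from 7.64 ± 1.90% to 4.03 ± 0.259% (SD, n = 3). In the Jun family, Jund made up 13.4%, 8.5% and 8.23% in the male libraries and 32.8%, 34.8% and 37.9% in the female ones. Jun went from 38.7 ± 4.86% to 24.3 ± 0.849%, and the Junb shares overlapped between the groups because male 4 (42.3%) lay among the female values (36.9% to 43.6%). RNA shares say nothing of which protein pairs form.

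**Figure D3:**
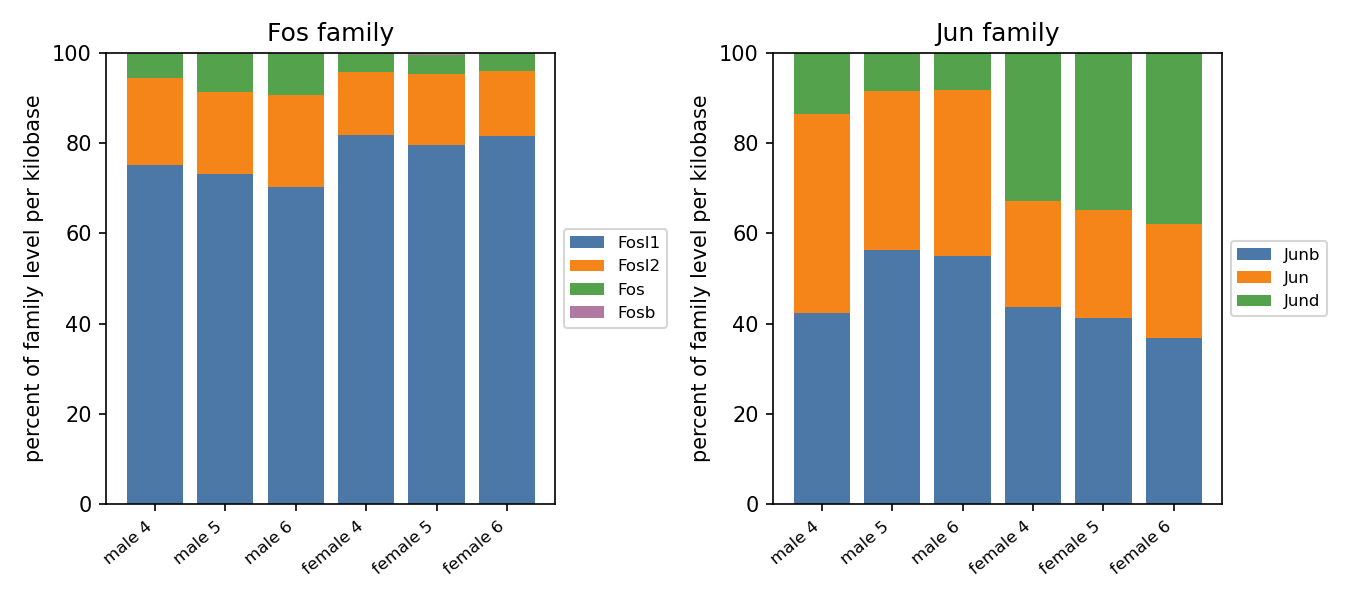
Percent of the summed normalized read count per kilobase held by each Fos gene (left) and each Jun gene (right) in each library, with bars that add to 100. Fosl1 is the main Fos gene in every library, Fosb is too small to see, and the Jund share of the Jun family is 8.23% to 13.4% in male libraries and 32.8% to 37.9% in female ones.

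Members were also compared as ratios within a library, taken as differences of log2(value + 1). The log2 ratio of Jund to Jun was -2.64, -2.97 and -3.08 in the male libraries and -0.46, -0.39 and -0.34 in the female ones, a difference of 2.5. Ratios of Fosb to Fos, Atf3 to Jun, Fos to Jun and Fosl1 to Fosl2 differed by 1.59, 1.22, 0.73 and 0.56, each higher in the female libraries with no overlap. A two-sided exact permutation test gave p = 0.1 for these 5 ratios, the smallest value that 3 against 3 libraries allow, and 0.12 after adjustment over the 6 ratios. The ratio of Junb to Jun overlapped between the groups, with a difference of 0.33 (exact permutation p = 0.3, adjusted p = 0.3), and this difference was 0.10 without male 4. Without male 4 the other 5 differences were 2.62 for Jund to Jun, 1.64 for Fosb to Fos, 1.06 for Atf3 to Jun, 0.64 for Fos to Jun and 0.58 for Fosl1 to Fosl2. With no pseudocount, a choice made after the data had been seen that leaves the ratios independent of library scaling, the 6 differences were 2.51 for Jund to Jun, 1.35 for Fosb to Fos, 1.03 for Atf3 to Jun, 0.65 for Fos to Jun, 0.56 for Fosl1 to Fosl2 and 0.34 for Junb to Jun. The plain log2 ratio of Fosb to Fos in female 6 was then -3.94, next to -3.95 in male 5, so those groups were barely apart.

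Of 29 other immediate early genes tested, 13 were called lower, 7 higher and 9 not called, with a median log2 difference of -0.10 beside 0.01 over all tested genes. For this list and the 4 that follow, the shares to compare are the 34.6% of all tested genes called in each direction. Gem, a small GTPase of the RGK family, was 31.2, 48.5 and 47.8 in the male libraries and 2.28, 2.56 and 1.99 in the female ones (log2 difference -3.71, SE 0.17, adjusted p = 5.09e-07). Klf10, a TGF-beta-induced zinc finger factor, and Ier3, a survival gene, were also lower at -1.85 and -1.83. Ptgs2, which encodes the inducible cyclooxygenase COX-2, was 126, 80.8 and 83.2 against 982, 892 and 698 (log2 difference 3.15, SE 0.18, adjusted p = 1.7e-06). Plk2, a stress-responsive polo-like kinase, was higher at 1.75 and Myc, a growth regulator, at 1.84. Myc was 81.5 in male 4 and 35.5 and 30.6 in male 5 and male 6, the same placing of male 4 as for Egr1.

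Egr2 was higher at 0.37 like Egr1, whereas Egr3, the third gene of that zinc finger family, was at 0.02 and not called. Male 4 was the male library nearest to the female mean for 20 of the 29, beside 42.9% of all tested genes. The number called higher was 11 without male 4 instead of 7, while the share over all tested genes went from 34.6% to 38.9%.

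**Figure D4:**
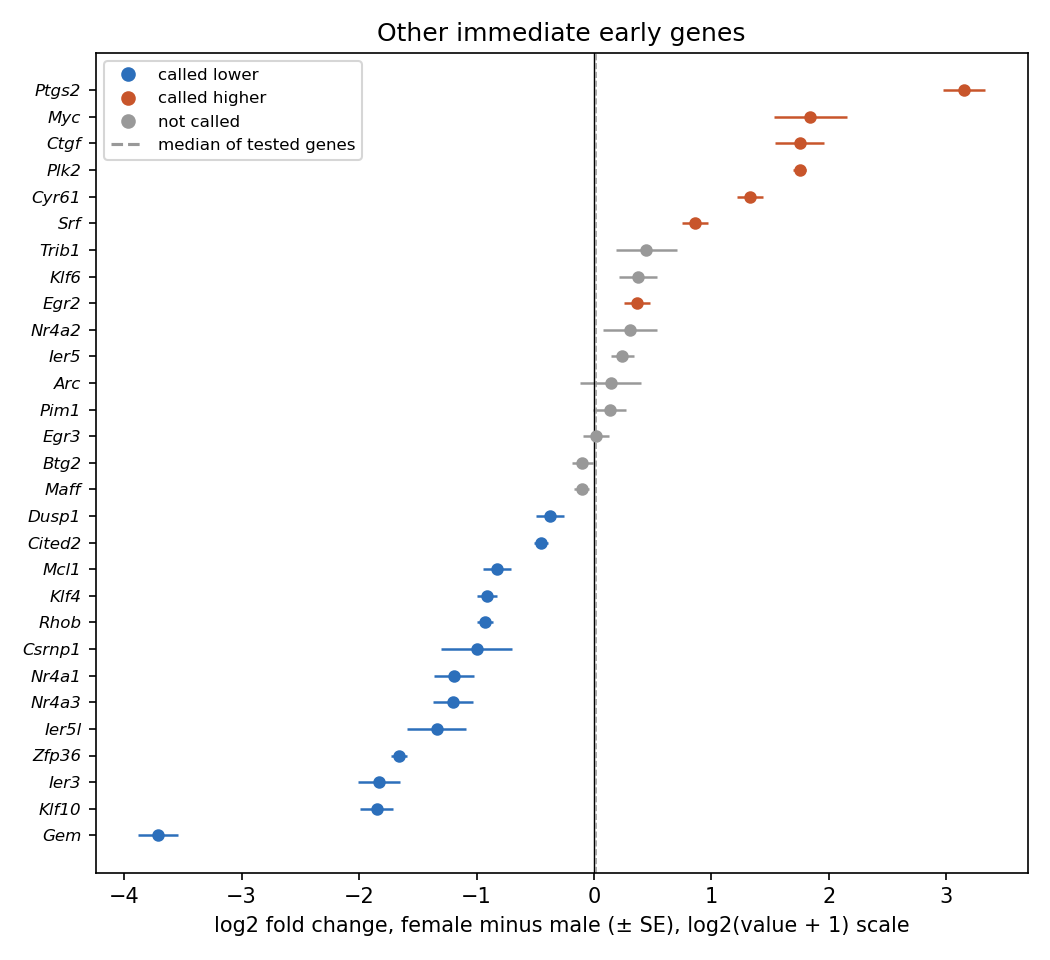
Log2 difference, female minus male, with standard error for the 29 other immediate early genes tested. Blue points (13) were called lower, orange points (7) higher and grey points (9) not called, and the values run from -3.71 for Gem to 3.15 for Ptgs2.

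Of 20 genes tested for other bZIP proteins, 7 were called lower, 9 higher and 4 not called, with a median log2 difference of 0.03. These shares are near the 34.6% of all tested genes called in each direction, so the list as a whole did not stand out. Many of these proteins can pair with AP-1 subunits, but Creb1, Atf6, Atf1 and Crem are not established partners. Creb1 and Atf6 were called higher, Atf1 was called lower and Crem was not called. Ddit3, the stress factor CHOP, was lower with means of 176 ± 16.7 and 48.3 ± 2.97 (log2 difference -1.84), the direction of its relative Atf3, while Atf4, which induces both in the integrated stress response, was 260 ± 52.3 and 297 ± 21.3 and not called (0.21, adjusted p = 0.213). Creb5, a relative of CREB, was also lower at -1.13. Maf, Mafk and Jdp2, a bZIP repressor of AP-1, were higher at 1.37, 1.14 and 0.87.

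Upstream of AP-1 stand the MAP kinases, which phosphorylate Jun and Fos proteins, and the factors that induce their genes. Of 34 genes tested from a list of such kinases and factors, 12 were called lower, 15 higher and 7 not called. Their median log2 difference was 0.09, and the shares again are near the 34.6% over all tested genes. The 12 lower genes include Tcf4 (log2 difference -1.54), which is not an established inducer of the Jun and Fos genes. Mef2c, a MADS-box factor that can bind the Jun promoter, was lower with means of 110 ± 18.4 and 9.66 ± 1.14 (log2 difference -3.37). Map2k6, a kinase of the p38 branch, and Map3k1, a kinase at the head of the JNK branch, were lower at -3.06 and -2.14. Rps6ka2, an RSK kinase below ERK, Mapk13, which is p38 delta, and Mkl1, the actin-sensing partner of serum response factor, were higher at 1.52, 1.42 and 1.06. These are RNA levels, and no kinase activity was measured.

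Of 15 genes tested from a list of turnover factors and brakes of AP-1, 6 were called lower, 6 higher and 3 not called. These shares are near the 34.6% over all tested genes in each direction, and the median log2 difference was 0.20. Cops5, Uchl3 and Otud1, all called higher, are not established to end the AP-1 response. Zfp36 and Zfp36l1, RNA-binding proteins that speed the decay of AU-rich transcripts such as that of Fos, were lower at -1.66 and -1.41, and Btg1, an antiproliferative factor, at -1.02. Otud1, a deubiquitinase, and Fbxw7, the ubiquitin ligase subunit that marks Jun for degradation, were higher at 1.32 and 0.94. Jdp2 belongs to this list too.

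Of 30 classical AP-1 targets tested, 16 were called lower, 12 higher and 2 not called, with a median log2 difference of -0.25 and 34.6% of all tested genes called in each direction. Mt2, a metallothionein, was lower with means of 556 ± 70.5 and 69.8 ± 6.92 (log2 difference -2.97), as was Lif, a cytokine of the IL-6 family, at -2.15. Podxl, a surface sialomucin that is not an established AP-1 target, was lower at -2.80. Higher genes included the matrix metalloproteinases Mmp10, at 0.290, 0.343 and 0.283 against 9.88, 8.97 and 11.6 (log2 difference 3.09), and Mmp13 (2.35), and the cytokine gene Il6, at 3.23, 4.96 and 4.63 against 31.4, 30.7 and 31.3 (2.62). The other metalloproteinase genes tested from the list, Mmp3 and Mmp9, were lower at -1.88 and -1.53. Without male 4, 12 other immediate early genes were called lower and 11 higher. The counts lower and higher were then 7 and 9 for the other bZIP genes, 13 and 17 for the upstream genes. They were 6 and 7 for the turnover and brake genes and 15 and 12 for the targets. In that fit 35.9% and 38.9% of all tested genes were called lower and higher.

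The genes whose pattern over the 6 libraries was most like that of a member were ranked by Pearson correlation of log2(value + 1) among 8968 genes. The nearest to Jun were Hspa12a (r = 1.0), Aqp3 (0.9999) and Hk2 (0.9998), and among those nearest to Junb were Sdc1 (0.9994) and Ppp1r9b (0.9991). For Fos they were Adm (0.9999), Sap30 (0.9996) and Prl2c5 (0.9995), and for Fosl2 Grik5 (0.9999), Uhrf2 (0.9999) and Ugt1a6a (0.9997). With 2 groups of 3 libraries any gene that separates the groups scores highly, and 586 genes reached an r of 0.99 with Jun, 129 with Junb, 230 with Fos and 656 with Fosl2. The correlations describe these libraries and carry no test.

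Cell type markers moved with the same contrast. Of 17 endothelial markers tested, 14 were called lower and 2 higher, where 34.6% of all tested genes were called in each direction, as for the lists below, and their summed level was 2480 to 2590 in the male libraries and 1300 to 1360 in the female ones. Pecam1, the CD31 gene used for isolation, was 405, 391 and 423 against 73.5, 73.8 and 74.5, and Cdh5 was 925, 918 and 929 against 392, 397 and 374. The sum of 10 sinusoidal markers, of which 3 were tested (2 lower, 1 higher), was 494 to 533 and 40.4 to 43.2, with Lyve1 at 498 ± 24.8 in the male group as the main part of the male sum. Gata4 went the other way, from 3.73, 3.85 and 3.67 to 32.9, 31.2 and 32.2. Fibroblast, stellate and mural markers (15 tested, 10 lower, 4 higher) summed to 2970 to 3790 and 3540 to 4230, with Col3a1 lower and Acta2, Tagln and Myh11 higher in the libraries labelled female. Cholangiocyte markers (7 tested, 5 lower, 2 higher) summed to 1740 to 2590 and 564 to 664, mostly from Spp1 (1370 ± 380 and 376 ± 42.9) and Krt19 (461 ± 47.7 and 116 ± 20.2). Mesothelial markers (6 tested, 1 lower, 5 higher) summed to 425 to 520 and 501 to 507. Krt19 is on this list too, where it was the 1 lower gene and made up most of the male sum. Msln was 19.4 ± 1.97 and 332 ± 29.6, Upk1b 0.582 and 35.3, and Wt1 0.101 and 12.8. Macrophage markers (3 tested, 1 lower, 2 higher) summed to 12.0 to 14.7 and 15.2 to 18.2, and hepatocyte markers (1 tested, lower) to 7.13 to 11.7 and 0.285 to 0.374, with Alb at most 0.600 and Ahsg at 0 in 2 female libraries. The 10 lymphocyte markers were not analysed here. The part of cell makeup in the members' values was not tested.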

How the data were processed

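Messenger RNA (polyA-enriched) libraries were compared as deposited in 1 table of the series. The submitters' processing notes name Bowtie2, RSEM, edgeR and the build mm39, with no versions or roles, and the rule for a detectable gene is not given in the sources used here. The 6 value columns hold normalized read counts by the authors, a signal per gene; 100.0% of values were whole multiples, within 0.01, of the value of 1 read, so whole reads were recovered, and column sums were 1051201 to 1153367. The deposited fold change (a signed score) and the deposited p-value and false discovery rate are the authors' own, per the file headers.

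Genes that reached a value of 1 in 3 or more libraries were tested on log2(value + 1) with limma 3.58.1 (R 4.3.3), group only, two-sided, with Benjamini-Hochberg adjustment and a threshold of 0.05. Alternatives used edgeR 4.0.16 and DESeq2 1.42.0 on the recovered reads, other filters, scalings, pseudocounts and leaving out each library. edgeR's quasi-likelihood test on those reads called 4558 genes lower and 4417 higher. Scripts were tested on simulated data. Log2 ratios were compared by exact permutation (scipy 1.17.1). Exon lengths came from GENCODE M21 (12001 of 12568 tested genes matched) and promoter windows from RefSeq. From each list the text names the 3 largest called increases and decreases, with further genes marked as chosen later or given as relatives of a member; some genes that the rule picks are not reported here. The members and lists were chosen with earlier results of these data known. Strandedness of counting is not given in the sources used here, so reads of antisense partners cannot be told apart. No per-sample column was without a sample.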

Additional observations from a re-analysis of the deposited data

How the results depend on the processing

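Of 159 recomputed log2 differences of members, 156 kept their direction and side of the threshold, 0 reversed, and 3 changed their call. Jund (-0.44) lost its call under the added requirement of an absolute log2 difference of at least 1, and Fosb gained one without male replicate 4 (-0.83) and without female replicate 5 (-0.86); Fosb had no value when at least 1 was required in all 6 libraries. Under that requirement on the log2 difference, 1519 of the 12568 tested genes were lower and 1070 higher. Called lower were 8 other immediate early genes, 4 other bZIP genes, 6 upstream genes, 3 turnover and brake genes and 9 targets. Called higher were 5 other immediate early genes, 2 other bZIP genes, 3 upstream genes, 1 turnover or brake gene and 7 targets. Other immediate early genes called higher numbered 6 to 11 when each library was left out in turn, the highest without male replicate 4. Fewer tests pass a stricter rule by construction, and for the rest the cause was not tested.

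Replicate numbers did not pair the samples (correlations of same-numbered deviations of -0.0936, -0.0303 and -0.17), and with the replicate block 7 members were lower and 2 higher, as without it, and 4160 genes were lower and 4154 higher. Quantile normalization moved the median log2 difference of all genes from 0.014 to 0.08. Fosb rested on 16 to 112 reads in a library. With 3 libraries a group, no exact test of a ratio can pass the threshold.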
